A study of Mus musculus with 42 samples.

Results

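Olfr30 is a mouse odorant receptor (OR) gene, and it is described here from its row in each of the 9 deposited tables, 1 gene among 1088 intact ORs in the 8 odor tables and 1087 in the zone table. It was chosen by its response to acetophenone (ACT), where it was singled out among the ORs that respond to the undiluted odorant, so its values with ACT are given as a description without tests. The working name, a receptor for ACT at high dose, covers only part of what the tables hold, since Olfr30 also rose with 1% and 100% trimethylthiazoline (TMT). All mice were wild-type C57BL/6 animals (C57BL/6J in the study's methods) of postnatal day 20 to 22, and the labels give no transgene or deletion. Each of the 36 libraries made by immunoprecipitation (IP) of phosphorylated ribosomal protein S6 (pS6) came from the olfactory epithelium of a mouse exposed to ACT or TMT at a starting concentration of 0.01%, 0.1%, 1% or 100% (v/v), or to no odor. There were 3 mice in each of 12 groups, and littermates of the same sex, numbered by litter, made up each replicate, with both sexes pooled in a group. For each odorant, the 0.01% and 0.1% groups shared 3 no odor mice (the low set), and the 1% and 100% groups shared 3 others (the high set). The 6 remaining libraries held total RNA of the dorsal or the ventral olfactory mucosa of mice of the same strain and age, 3 of each.

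ORs are membrane-spanning proteins coupled to a G protein, and a mature olfactory sensory neuron (OSN) transcribes a single allele of a single OR gene. The RNA of an OR therefore marks the OSNs that chose it. When an odorant excites an OSN, ribosomal protein S6 becomes phosphorylated, and the IP of pS6 pulls down the ribosomes of active neurons with their RNA, so that the OR transcripts of responding OSNs become more abundant in the library. OSNs that express a given OR lie within zones along the dorsal to ventral axis of the epithelium. ACT is an aromatic ketone with a sweet smell, and TMT is an odorant of fox scent that rodents avoid. In these bulk libraries, more active OSNs of a type and more pS6-bound RNA per OSN cannot be told apart.

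Olfr30 (ENSMUSG00000043314) lies on the minus strand of chromosome 11 at chr11:58454105-58462270 in GRCm38, the build of the deposited tables. GENCODE vM21 gives it 2 transcripts whose starts are 6290 bases apart. The longer has 3 exons, the shorter a single exon, and the whole coding sequence of 945 bases, which encodes 315 residues, sits in the last exon of the longer and in the single exon of the shorter, at chr11:58455003-58455947. No other annotated gene overlaps it on either strand. OR genes resemble each other closely, so the stretch below shows how far a read of 50 bases from Olfr30 can be told from its relatives. It is the coding sequence of Olfr30 at chr11:58455555-58455614 (minus strand), and capitals mark the 18 bases that encode the motif shared by most ORs at the inner end of the third membrane-spanning segment.
Olfr30: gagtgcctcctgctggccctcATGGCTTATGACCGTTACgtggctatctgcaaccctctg
The same stretch follows for the 4 ORs most similar in protein sequence and for the nearest ORs on the chromosome, with capitals at the bases that differ from Olfr30.
Olfr1395: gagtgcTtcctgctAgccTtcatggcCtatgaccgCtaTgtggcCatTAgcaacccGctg
Olfr56: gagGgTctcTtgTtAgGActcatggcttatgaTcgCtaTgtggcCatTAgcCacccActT
Olfr372: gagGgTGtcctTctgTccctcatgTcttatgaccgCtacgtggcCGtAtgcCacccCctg
Olfr373: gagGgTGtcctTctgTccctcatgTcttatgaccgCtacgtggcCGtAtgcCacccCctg
Olfr332: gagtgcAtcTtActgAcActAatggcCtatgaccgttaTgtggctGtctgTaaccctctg
Olfr331: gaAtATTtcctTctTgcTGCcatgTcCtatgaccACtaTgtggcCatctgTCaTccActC
Even in this conserved stretch of 60 bases, the 6 ORs differed from Olfr30 at 10 to 20 positions, while Olfr372 and Olfr373 were identical to each other there. Across the coding sequence, the closest 50 bases to any other OR had 4 differences, shared with Olfr316 and Olfr720, and 10 ORs came within 5 differences. That closest stretch lies at chr11:58455735-58455784 and is shown beside that of Olfr316, with capitals again at the differences.
Olfr30: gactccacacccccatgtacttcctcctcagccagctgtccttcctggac
Olfr316: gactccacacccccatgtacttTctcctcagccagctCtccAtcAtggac
None of the 896 distinct 50-base stretches of the coding sequence occurred in the transcripts of another gene. Over the whole transcripts, 86 of 2358 stretches did, and the genes that shared them numbered 1057. None of these 86 lay wholly within the coding sequence.

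The total counts on intact ORs ranged from 37012 to 128805 in the pS6-IP libraries and from 155319 to 242123 in the zone libraries, and Olfr30 had between 149 and 1723 counts in each pS6-IP library. A pair of ACT libraries stood apart from the others of their group. In the library labelled 1% ACT of litter 1, Olfr923, an OR with log2 fold changes of 3.10 and 3.75 at 0.01% and 0.1% ACT, had 65 counts against 772 and 1489 in the other litters, and Olfr1395, which rose at every TMT concentration, had 1623 counts against 188 and 315. This library goes against its group in both receptors. In the library labelled 0.01% ACT of litter 1, log2 changes against the no odor littermate had an SD of 1.26 over the 729 ORs whose counts averaged 20 or more. It was the widest of 24 such pairs, whose median was 0.71, and 100% ACT of litter 3 came next at 1.15. The 125 other ORs called higher at 100% TMT had a median log2 change of 1.81 in the 0.01% ACT library of litter 1, against 0.01 and -0.01 in the other litters of its group. Olfr923 was at 4.44 in it, beside 3.03 and 1.82 in the other litters, and Olfr1395 at -0.44, beside -0.40 and 0.13. The same 125 ORs had a median of 1.15 in the 100% ACT mouse of litter 1. Fold changes and means of Olfr30 at 0.01% and 1% ACT are given with and without litter 1.

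Levels are given as CPM, the counts of a gene per 1000000 counts on intact ORs, with factors from the trimmed mean of M values (TMM) over the 36 pS6-IP libraries. Without odor, Olfr30 was present in each of the 12 libraries, from 3087 to 6409 CPM with a median of 3823, a range of 2.08-fold. Group means of the no odor mice were 3604 ± 417 CPM (SD, n = 3) in the ACT high set, 3712 ± 751 in the TMT low set, 4342 ± 904 in the ACT low set and 5044 ± 1394 in the TMT high set. Their ranges overlapped.

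**Figure D1:**
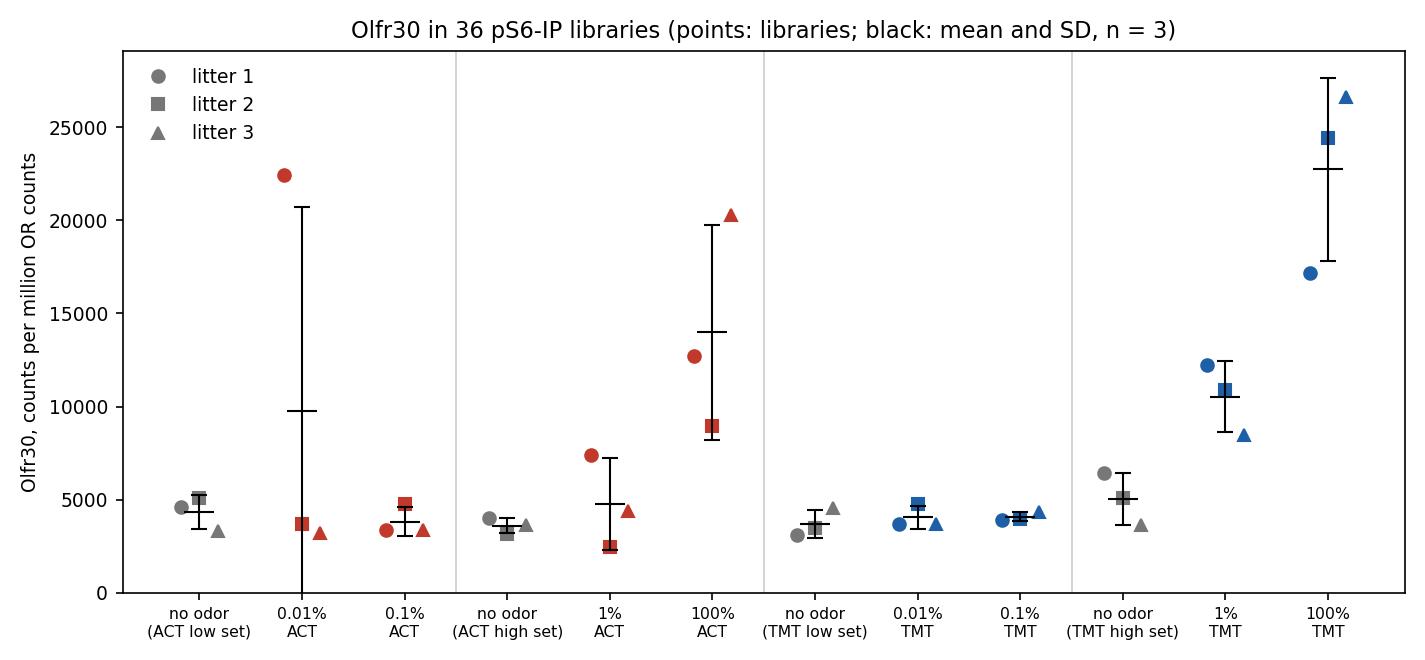
Level of Olfr30 in the 36 pS6-IP libraries, in CPM over intact ORs (vertical axis), by group (horizontal axis); each point is a library, its shape gives the litter, and black bars give the mean and SD of 3 libraries (the lower bar of 0.01% ACT passes below 0 and is not drawn). The 3 libraries of 100% TMT sit between 17185 and 26605, above every no odor library, and the 0.01% ACT library of litter 1 stands alone at 22415.

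Ordered by mean, the 12 groups ran from the no odor mice of the ACT high set and of the TMT low set over 0.1% ACT (3822 ± 795 CPM), 0.01% TMT (4056 ± 624), 0.1% TMT (4086 ± 240), the no odor mice of the ACT low set and 1% ACT (4770 ± 2491) to the no odor mice of the TMT high set. Above them stood 0.01% ACT (9771 ± 10953), 1% TMT (10527 ± 1897), 100% ACT (13987 ± 5766) and 100% TMT (22734 ± 4929). Each group overlapped in its range with its neighbour in this order. Between 0.01% ACT and 1% TMT the overlap came only from the 0.01% ACT library of litter 1. The no odor mice of the TMT high set reached 6409 CPM at most and did not overlap with 1% TMT, whose lowest value was 8478 CPM. The place of 0.01% ACT came from the library of litter 1 alone, since the other mice of that group had 3710 and 3187 CPM. Without litter 1, the mean of the other 2 mice was 3448 CPM at 0.01% ACT and 3443 CPM at 1% ACT, below every other group mean.

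Exposure to dilute TMT left Olfr30 near its no odor level. At 0.01% TMT the 3 mice had 3697, 4776 and 3694 CPM against 3087, 3504 and 4544 CPM in their no odor littermates. The groups overlapped, and the change was higher in 2 of 3 litters. The log2 fold change was 0.13 (SE 0.24, edgeR quasi-likelihood test with Benjamini-Hochberg adjustment over all ORs, adjusted p = 0.998), and a span of 2 SE on each side ran from -0.35 to 0.60. At 0.1% TMT the values were 3916, 3982 and 4361 CPM, which also overlapped with the same no odor mice. Here the log2 fold change was 0.16 (SE 0.25, edgeR adjusted p = 0.997), with 2 SE from -0.33 to 0.66. Higher calls were rare at these concentrations, at 0.368% of the ORs tested for 0.01% TMT and 1.38% for 0.1% TMT. Compared directly in a fit of all 18 TMT libraries, the 2 concentrations differed by a log2 of 0.02 (SE 0.24, edgeR adjusted p = 1, 2 SE from -0.47 to 0.50).

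At 1% TMT, Olfr30 rose about 2.06-fold. The 3 mice had 12221, 10881 and 8478 CPM against 6409, 5100 and 3622 CPM in their no odor littermates. All 3 stood above every no odor mouse of the experiment, and the groups did not overlap. The log2 changes of the litters were close together at 0.93, 1.09 and 1.22. The log2 fold change was 1.04 (SE 0.24, edgeR adjusted p = 0.000624), in a comparison in which 4.69% of the ORs were called higher and 0.184% lower. Without litter 2 the fold was much the same at a log2 of 1.07, but its SE widened to 0.41 and the call was lost (edgeR adjusted p = 0.198).

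At 100% TMT, Olfr30 rose further, to 4.39-fold over no odor. The 3 mice had 17185, 24414 and 26605 CPM, and the lowest of them was 2.68-fold above its own littermate and above all mice of 1% TMT. The litters ranged widely, with log2 changes of 1.42, 2.26 and 2.87. The litter with the highest no odor level, litter 1, had the smallest change, and litter 3, with the lowest no odor level, had the largest. The no odor level is the base of each change, so these orders are not independent. The log2 fold change was 2.13 (SE 0.31, edgeR adjusted p = 4.27e-10). In this comparison 11.6% of the ORs were called higher and 3.31% lower, and Olfr30 had the 34th largest log2 fold change of the 126 ORs called higher.

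The step from 1% to 100% TMT passed the test of the difference itself. By litter the log2 step was 0.49, 1.17 and 1.65, upward in all 3 but wide in size. In the fit of all 18 TMT libraries, Olfr30 was higher at 100% than at 1% TMT by a log2 of 1.16 (SE 0.24, edgeR adjusted p = 0.000248), where 6.34% of the ORs were called higher. The response at 100% TMT exceeded that at 0.01% TMT by a log2 of 2.05 (SE 0.35, edgeR adjusted p = 7.74e-06), each response taken against its own no odor mice, and 7.08% of the ORs were called higher in that contrast. The response at 1% exceeded that at 0.1% TMT by a log2 of 0.88 (SE 0.34, 2 SE from 0.19 to 1.56), which did not pass the adjustment over all ORs (edgeR unadjusted p = 0.0122, adjusted p = 0.336), and 1.29% of the ORs were called higher there. The contrasts of responses between the low and the high set compare different litters, and the part of the set was not tested. Thus, Olfr30 rose at 1% and again at 100% TMT, whereas the place of the step between 0.1% and 1% did not pass the test of the difference itself.

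**Figure D2:**
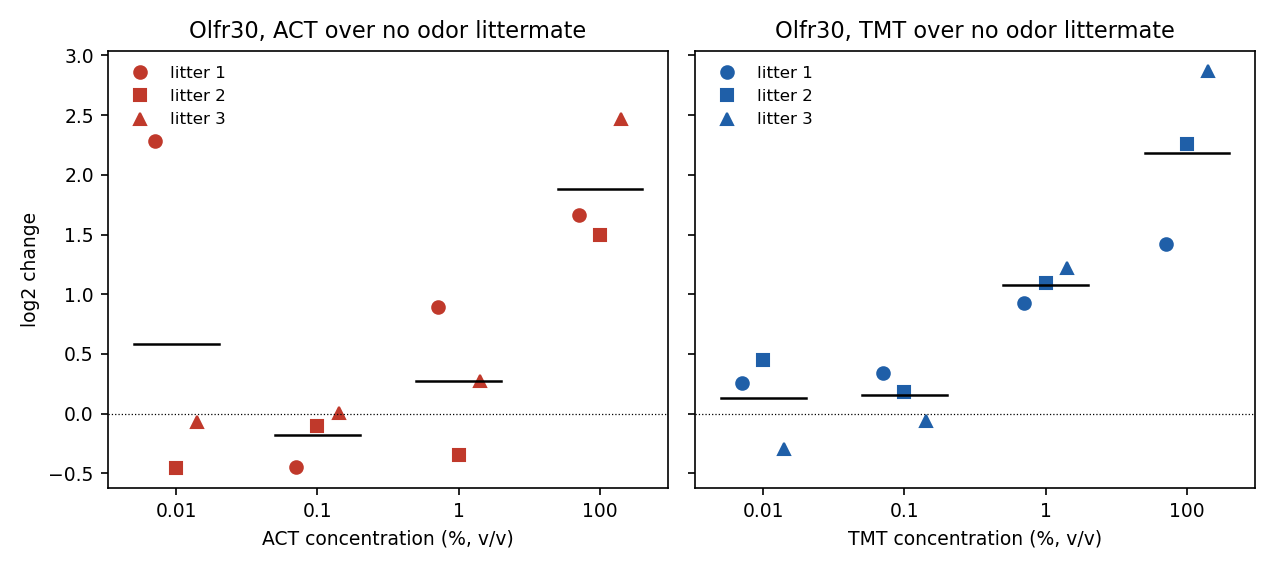
Log2 change of Olfr30 in each mouse over its no odor littermate (vertical axis) by starting concentration of ACT (left) and TMT (right); points are litters and black lines the mean of 3 litters. With TMT the 3 litters lie between 0.93 and 1.22 at 1% and between 1.42 and 2.87 at 100%; with ACT all 3 are clearly above 0 at 100%, and at 0.01% litter 1 lies at 2.28 apart from the others.

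With ACT, by which Olfr30 was chosen, the values are a description. At 0.01% ACT the 3 mice had 22415, 3710 and 3187 CPM against 4603, 5087 and 3336 CPM without odor. The mouse of litter 1 was 4.86-fold above its littermate, whereas those of litters 2 and 3 were at or below theirs. The log2 fold change of 0.55 became -0.27 without litter 1. At 0.1% ACT the mice had 3376, 4740 and 3350 CPM, and the log2 fold change was -0.16.

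At 1% ACT the values were 7424, 2482 and 4405 CPM against 3997, 3166 and 3650 CPM in the no odor littermates. The highest of them was the library of litter 1, in which Olfr923 was low and Olfr1395 was high. The log2 fold change was 0.27 with it and -0.04 without it, so that in the other litters Olfr30 stood lower in litter 2 and higher in litter 3. The part of this library in the value was not tested.

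At 100% ACT the 3 mice had 12716, 8962 and 20282 CPM, each above every no odor mouse. Their log2 changes were 1.67, 1.50 and 2.47, and the log2 fold change was 1.86, or 3.63-fold. Leaving out a litter moved it between 1.58 and 2.12. The 125 other ORs called higher at 100% TMT had median log2 changes of 1.15, 0.26 and 0.52 in the same 3 mice.

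Side by side, the log2 fold changes of Olfr30 were 1.86 at 100% ACT and 2.13 at 100% TMT, and 0.27 at 1% ACT and 1.04 at 1% TMT. The odorants were given to different litters, and a difference between them was not tested, as the ACT values chose the gene. Olfr923 and Olfr376, a pair of ORs that the study also names for ACT, had other courses. The study names Olfr376 among its ORs for TMT as well. Olfr923 had log2 fold changes of 3.10, 3.75, 2.83 and 2.0 from 0.01% to 100% ACT, so it was already far above no odor at the lowest concentration. With TMT it was at 0.35, 0.32, -0.97 and 0.20, of which the value at 1% passed the test (edgeR adjusted p = 0.0193). That value rested on litter 3, at -2.44 against -0.20 and -0.26, and its call was lost without litter 3, with DESeq2, with a filter on low counts and with the size factors over all genes. In the library of 1% ACT litter 1 its log2 change was 0.50, while litters 2 and 3 were at 3.36 and 4.13. Olfr376 had 0.83, 0.58, 2.35 and 1.95 with ACT, where the mice of litter 1 were at 3.15 at 0.01% and 2.86 at 1%, and the others at 0.41 and -0.90 and at 1.45 and 2.73. With TMT, Olfr376 had 0.31, 1.01, 2.65 and 2.78, and rose at 0.1% (edgeR adjusted p = 0.00223), 1% and 100%.

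In total RNA of the mucosa without odor, Olfr30 was higher in the dorsal zone. The dorsal libraries held 581, 333 and 518 counts of Olfr30, or 2934, 2076 and 3507 CPM, and the ventral libraries 105, 135 and 116 counts, or 510, 581 and 585 CPM. The groups did not overlap, and the lowest dorsal value stood well above the highest ventral value. The mean was 2839 ± 720 CPM (SD, n = 3) dorsally and 558 ± 42 ventrally. The log2 fold change was 2.32 (SE 0.57, edgeR adjusted p = 0.00239), or 4.98-fold, in a comparison with higher calls for 37.4% of the ORs dorsally and 37.2% ventrally. The scaling moved the size: the log2 fold change was 1.72 with total counts (edgeR adjusted p = 0.0194), 1.76 with upper quartile scaling and 1.90 with the size factors over all genes, and the call held in each. The median over all ORs was -0.65 with TMM and -1.24 with total counts. Olfr30 lay 2.96 above the median, a distance that another scaling leaves as it is by construction. Without the libraries of replicate 3 the log2 fold change was 2.18 and the call was lost (edgeR adjusted p = 0.104).

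**Figure D3:**
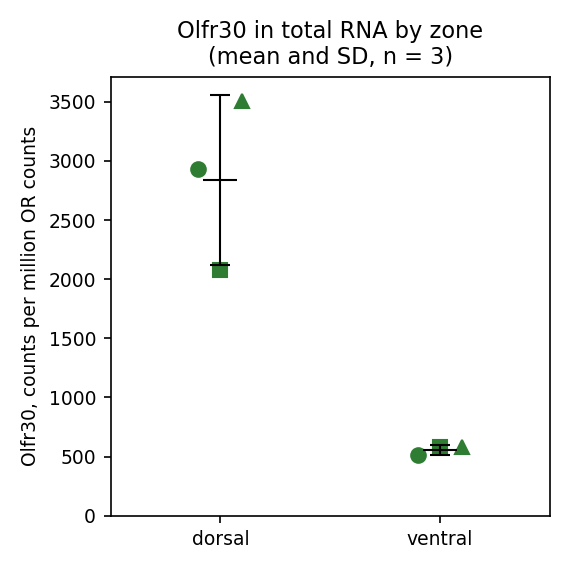
Level of Olfr30 in total RNA of the dorsal and ventral mucosa (horizontal axis), in CPM over intact ORs (vertical axis); points are libraries, their shapes the replicate numbers, and black bars give the mean and SD of 3 libraries. The dorsal libraries lie between 2076 and 3507, the ventral ones between 510 and 585.

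Olfr30 is the first of 22 intact ORs in a cluster of 1.16 Mb on chromosome 11, where ORs less than 1 Mb apart were counted together. On its low side follow genes of other families, and the nearest ORs there, Olfr1371 and Olfr1373, lie 6.24 and 6.31 Mb away. On its other side the nearest intact OR is Olfr332, at a distance of 25.7 kb, and then Olfr331, at 39.3 kb. Olfr1371, Olfr1373 and Olfr331 had no count in the TMT and zone libraries, so only Olfr332 could be compared. Olfr332 had log2 fold changes of 0.15 at 1% TMT and -0.37 at 100% TMT, and neither passed the test (edgeR adjusted p = 0.966 and 0.466). It had -0.77 between the zones, with higher values ventrally (edgeR adjusted p = 0.212). Between 1% and 100% TMT it was at -0.51 (edgeR unadjusted p = 0.0397, adjusted p = 0.238). Olfr332 thus passed the test in none of the comparisons in which Olfr30 did.

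Of the 21 other ORs of the cluster, 4 (19.0%) were higher at 1% TMT, where 4.69% of all ORs were, with a median log2 fold change of 0.15 beside -0.04 over all ORs. These were Olfr330 (log2 of 1.99), Olfr325 (1.47), Olfr315 (0.91) and Olfr224 (0.86). With total counts, with the size factors over all genes or with DESeq2, 2 of the 21 were called higher. At 100% TMT, where Olfr30 rose most and 11.6% of all ORs were called higher, edgeR called 0 of the 21 higher and 0 lower (0 and 1 at an unadjusted p under 0.05). DESeq2 also called 0 in each direction, and edgeR's likelihood ratio test called 0 higher and 1 lower. The median of the cluster was 0.11 beside -0.08 over all ORs. Olfr330, the largest change at 1% TMT, had counts of 106, 80 and 41 without odor, 236, 498 and 271 at 1% and 108, 84 and 88 at 100% TMT, and its change at 100% did not pass the test (log2 of 0.34, edgeR adjusted p = 0.506). By zone, 4 of the 21 ORs (19.0%, beside 37.4% of all ORs) were higher dorsally, as Olfr30 was, and 9 (42.9%, beside 37.2%) ventrally, with a median of -0.77 beside -0.65 over all ORs. The 4 dorsal ORs were Olfr317, Olfr225, Olfr223 and Olfr313, at 269, 1148, 1126 and 353 kb from Olfr30. The cluster has a wide gap between Olfr311, at 377 kb, and Olfr222, at 1108 kb.

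**Figure D4:**
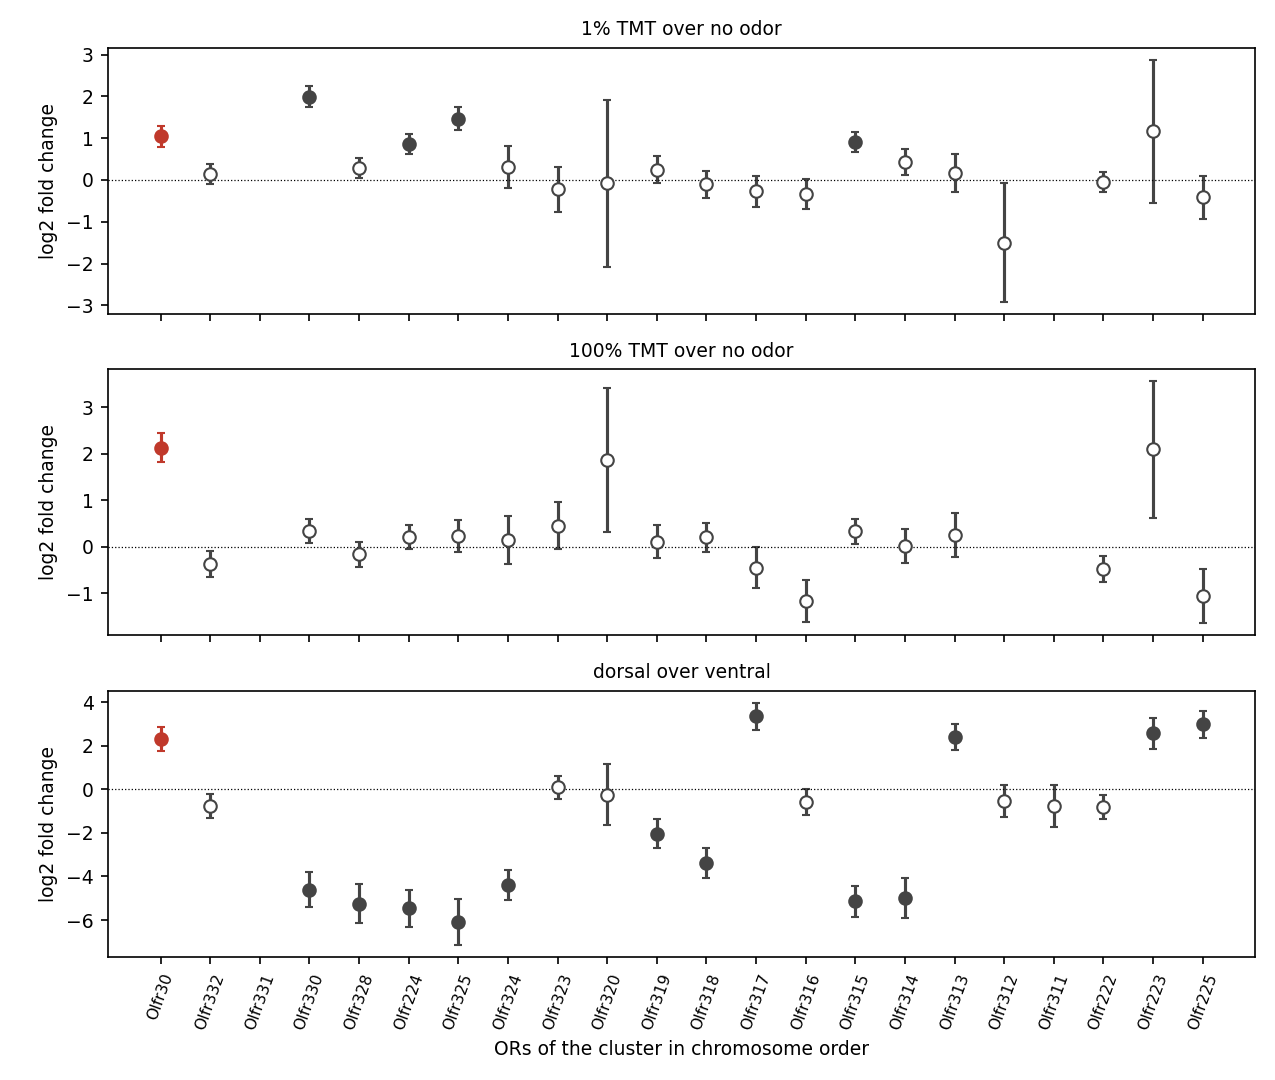
Log2 fold change (vertical axes) at 1% TMT, at 100% TMT and between the zones for the ORs of the cluster in chromosome order (horizontal axis); Olfr30 is in red, filled points have an edgeR adjusted p under 0.05, and bars are 1 SE. Olfr331, which had no count, and values with an SE over 2 (Olfr311 at both TMT concentrations, Olfr312 at 100%) are not drawn. At 100% TMT Olfr30 is the filled point at 2.13, and no other OR of the cluster is filled. Spacing is not to scale, and a wide gap lies between Olfr311 and Olfr222.

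The ORs closest to Olfr30 in protein sequence lie elsewhere. Identity in a global alignment was 57.7% for Olfr1395 and 56.8% for Olfr56, both on chromosome 11 outside the cluster, 55.6% for Olfr372 and 54.9% for Olfr373, both on chromosome 8. The median over 1075 ORs was 40.0%, the tenth of the list was at 52.6%, and 2 of the 10 closest, Olfr328 and Olfr224, belonged to the cluster. Olfr1395 rose at each TMT concentration, with log2 fold changes of 1.93, 2.81, 2.43 and 2.01 from 0.01% to 100% (edgeR adjusted p between 4.48e-18 and 1.06e-07). Its course was thus high from the lowest concentration, where Olfr30 was at 0.13. Olfr56 rose at 0.1% and 1% TMT (log2 of 0.84 and 1.59) and had -0.42 at 100%, where it did not pass the test. Olfr372 and Olfr373 had values between -1.24 and -0.13 with TMT, none past the test.

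Of the 10 closest relatives, 4 were higher at 1% TMT, beside 4.69% of all ORs, and 3 at 100% TMT, beside 11.6%, where the median was -0.03 beside -0.08 over all ORs. With total counts, with the size factors over all genes or with DESeq2, 3 of the 10 were called higher at 1% TMT. Olfr224, called at 1% TMT, is also among the ORs of the cluster called there. The relatives called at 100% TMT were Olfr1395, Olfr31 (log2 of 1.39) and Olfr705 (1.25). With ACT at 100%, the median of the relatives was 0.06 beside 0.00 over all ORs, and Olfr1395 was at -0.25, beside 1.86 for Olfr30. By zone, 7 of the 10 were higher ventrally, beside 37.2% of all ORs, and 2, Olfr372 and Olfr373, dorsally as Olfr30 was, beside 37.4%, with a median of -2.82. With each of the other 3 scalings, 1 of the 10 was called higher dorsally.

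By the course of its changes, Olfr30 was most like Olfr141, Olfr1477, Olfr20, Olfr1094 and Olfr1087. Likeness was measured as Pearson's r over 24 log2 changes, each of a mouse over its no odor littermate, among the 728 other ORs whose counts averaged 20 or more, and the changes at a pair of concentrations share their no odor mouse. The r values were 0.88, 0.85, 0.84, 0.84 and 0.84, and 31 ORs were above 0.7. The median over the 728 ORs was near 0. Without the 0.01% ACT mouse of litter 1 the same 5 had r between 0.82 and 0.86, and without the 1% ACT mouse of litter 1 as well, between 0.82 and 0.87. The ORs were not ranked anew for this. The sixth OR in the ranking had an r of 0.83, close to the fifth. Spearman's coefficients of the 5 over the 24 changes ran from 0.72 to 0.82.

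These ORs were chosen by their changes, and their folds are given without tests. At 100% TMT their log2 fold changes were 2.36 for Olfr141, 2.71 for Olfr1477, 2.61 for Olfr20, 2.17 for Olfr1094 and 2.78 for Olfr1087, beside 2.13 for Olfr30. At 100% ACT they were 1.16, 2.07, 2.21, 1.16 and 2.10 in the same order, beside 1.86. In the 0.01% ACT mouse of litter 1, where Olfr30 was at 2.28, Olfr20 was at 4.87 and Olfr1477 at 3.54, so these ORs were high there as well. They lie on chromosomes 2, 19 and 11, and their protein identity to Olfr30 was between 38.4% and 41.4%, close to the median of all ORs. By zone, Olfr141 (log2 of 2.35), Olfr20 (2.99) and Olfr1094 (1.66) were higher dorsally (edgeR adjusted p = 0.00246, 0.000725 and 0.0182), as Olfr30 was, while Olfr1477 (-1.92) was higher ventrally (edgeR adjusted p = 0.0120). Olfr1087 was at -1.16 and did not pass the test (edgeR adjusted p = 0.0854). Of all ORs, 37.4% were called higher dorsally and 37.2% ventrally. The zone values of these ORs are given with TMM only. With total counts the median over all ORs went from -0.65 to -1.24, so calls near the threshold may depend on the scaling. These ORs, the first by Pearson's r, were thus neither close relatives of Olfr30 nor all from its zone.

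**Figure D5:**
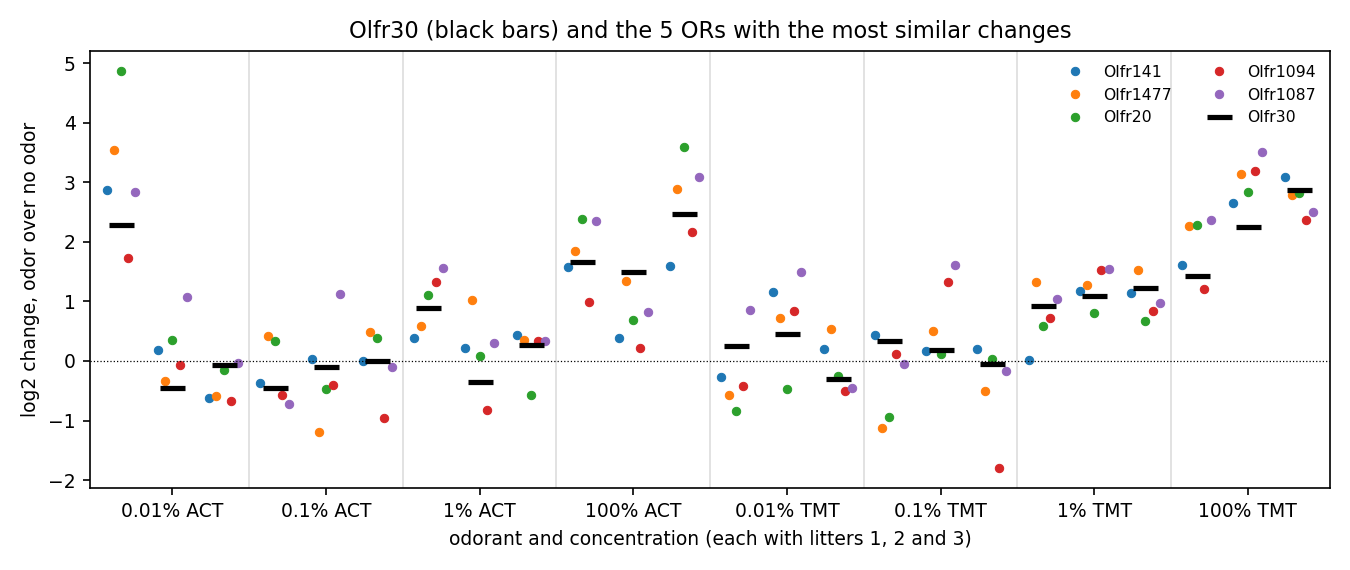
Log2 change of each mouse over its no odor littermate (vertical axis) for Olfr30 (black bars) and the 5 ORs most like it (coloured points), by odorant and concentration with 3 litters each (horizontal axis). All 6 ORs are above 0 in each mouse of 100% ACT and 100% TMT and in the 0.01% ACT mouse of litter 1, where Olfr20 reaches 4.87 and Olfr30 2.28.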

How the data were processed

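The study exposed mice for 1 h and sequenced RNA bound to pS6, and total RNA of both zones. Reads of 50 bases were aligned by the authors with STAR to GRCm38 and assigned with RSEM to an annotation that extends ORs by their UTRs. The deposited expected counts are rounded to whole numbers and hold ORs only, so markers of other cells were not analysed here. The deposited mean columns are a signal: counts divided by the authors' size factors over all genes. The authors' own fold changes and p-values were not used. Per-sample columns without a sample: 0.

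Each table was fitted with edgeR 4.0.16 (R 4.3.3): TMM over ORs, robust quasi-likelihood F test, litter as a block, no filter on low counts, Benjamini-Hochberg adjustment over all ORs at 0.05. The SE is the fold change divided by the root of F. TMT concentrations were compared in a fit of 18 libraries. DESeq2 1.42.0 was an alternative. Simulated counts for 100% TMT (1088 ORs) gave back 34% of 100 ORs changed 2-fold and 99% of those changed 4-fold; for the zones (1087 ORs) 93% of those changed 8-fold. Litter pairing comes from the study's methods; deviations of same-numbered mice from their group means correlated at -0.13 to 0.35, over 0.1 in 15 of 24 pairs. The zone numbers are not stated to pair animals, and there the same correlations were -0.29, -0.47 and -0.09. Replicate number was still the block of the zone fit. No replicate pair agreed within sampling noise. Mice of a litter are separate animals, and the study gives 3 mice for the zone libraries.

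Olfr30, the lists and the tests were chosen with earlier results of these data known. Named were Olfr30, the 5 ORs with the most similar changes, the 2 nearest ORs on each side, the 4 closest in protein sequence, and Olfr923 and Olfr376; others named were singled out after their values were seen. For 1083 of 1088 ORs the symbol matched GENCODE vM21, and 1076 had a complete coding sequence, which was translated and aligned with Biopython 1.88 (BLOSUM62). The labels of the zone libraries carry the IP protocol; the study's methods give total RNA. One label of the 0.1% TMT library of litter 1 names 1%; its odor label was used.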

Additional observations from a re-analysis of the deposited data

Results flagged for a closer look

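The response of Olfr30 to TMT differed between concentrations in a test of the difference itself. The log2 response at 100% TMT exceeded that at 0.01% TMT by 2.05 (SE 0.35, edgeR adjusted p = 7.74e-06, fit of 18 libraries), with log2 changes of 1.42 to 2.87 in the 3 litters at 100% and -0.30 to 0.45 at 0.01%. These concentrations belonged to different sets, with other litters and other no odor mice, and the part of the set was not tested.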

How the results depend on the processing

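Of 90 alternative values for the tested comparisons of Olfr30, 83 kept their direction and their side of the threshold. The calls at 1% TMT and between the zones were lost in a single case each: leaving out a replicate moved them between 1.03 and 1.14 and between 2.18 and 2.70 (lost without litter 2 and without replicate 3). The call at 100% TMT held under all alternatives (1.83 to 2.56), as did 100% against 1% TMT (0.88 to 1.44 without a litter) and the response at 100% minus that at 0.01% (1.47 to 2.51). Without litter 3, 100% against 1% TMT only just passed (log2 of 0.88, edgeR adjusted p = 0.0486). Values near 0 changed sign: 0.01% TMT ranged from -0.025 to 0.34 and 0.1% against 0.01% TMT from -0.11 to 0.17 without a litter, and the latter was -0.036 with total counts and -0.029 with upper quartile scaling. Without the replicate block (litter pairing) no call changed; 100% TMT was at 2.11 and the zones at 2.34. The 44 ACT values moved by less than 1 SD of the litters, which at 0.01% ACT was 1.48. That SD includes the mouse of litter 1, so it is a wide limit. The log2 fold change ran from -0.27 to 1.17 at 0.01% ACT and from -0.04 to 0.56 at 1% ACT. Both changed sign without litter 1. With the size factors over all genes the median of all ORs at 100% TMT went from -0.08 to -0.38 and Olfr30 to 1.83; between the zones Olfr30 was at 1.72 with total counts. ORs called lower at 100% TMT went from 36 to 123 with the size factors over all genes, and to 8 without litter 1; those called higher at 100% minus 0.01% TMT from 77 to 44 without litter 3, those higher at 1% minus 0.1% from 14 to 6 without litter 2 and 22 with DESeq2, those lower at 1% from 2 to 11 with total counts and to 0 with the size factors over all genes, DESeq2, a filter on low counts or without litter 3 (9 to 24 at an unadjusted p under 0.05), those higher at 0.1% from 15 to 9 and at 0.01% from 4 to 2 without a litter, and those higher ventrally from 404 to 201 without replicate 3. Of the counts for the lists, scalings chosen after seeing the data moved the relatives called lower at 100% TMT from 0 to 2 and the cluster ORs from 0 to 2. With 3 mice a group and at most 128805 OR counts a library, 2-fold changes may often be missed, as they were in the simulation for 100% TMT.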
